A study of Oryctolagus cuniculus with 4 samples.

Results

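Solute carriers were read here as the 540 probes, of 43603 non-control probes on the array, that carried the words solute carrier family in their description or a symbol starting with SLC and a number. They represented 245 genes of the 9794 that could be named on the array. The glucose carriers SLC2A1 and SLC2A3 were left out together with their 10 probes. The array files themselves named 416 of the 540 probes, and 124 were named only through their accession or gene identifier in a table of rabbit genes.

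Solute carriers are membrane proteins that move amino acids, sugars, organic acids, nucleosides, metals and inorganic ions across the plasma membrane and the membranes of organelles, driven by gradients of the substrate itself or of sodium, protons or another ion. The epithelium of the blastocyst, the trophectoderm, takes up amino acids, energy substrates and ions from the uterine fluid, and exchangers of sodium, protons, chloride and bicarbonate work beside the sodium pump while the cavity fills. Some carriers need a partner protein to reach the membrane, such as the heavy chain SLC3A2 for SLC7 amino acid exchangers, or basigin and embigin for the monocarboxylate carriers of the SLC16 family.

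Both groups were blastocysts of New Zealand White rabbits recovered at 6 days. Parthenotes came from oocytes activated by electrical pulses followed by cycloheximide and 6-DMAP, without sperm, and developed in the oviduct and uterus of recipient does, so both copies of their genome were maternal. The control embryos were untreated, fertilised in vivo in inseminated does. RNA (150 ng) of 4 pools of each group was labelled with Cy3 for parthenotes and with Cy5 for fertilised embryos, and 1 pool of each was hybridised together on each of 4 arrays. Dyes were swapped on 0 arrays, so dye and group cannot be told apart in any value given here. Pools hold all cells of the embryos and anything that adhered to them, so fewer cells of a type and less RNA per cell cannot be told apart either.

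The values are processed signals, that is intensities of each channel after background subtraction and dye normalisation, in arbitrary units and listed for arrays 1 to 4. The log2 ratio is parthenote over fertilised within an array, so a positive value means a higher signal in parthenotes. A gene was given by its brightest probe, was tested with limma against a ratio of 0, and was called when its Benjamini-Hochberg adjusted p over all 43595 probes tested was under 0.05. A signal counted as detected where the scanner software marked it well above background. Levels of different probes were not compared.

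Between 25805 and 26339 spots of the 43803 non-control spots were well above background in parthenotes, and 27508 to 27835 in fertilised embryos. The log2 ratios of any pair of arrays correlated across probes by 0.67 to 0.81. Of the blastocyst markers measured, 3 of 4 of trophectoderm (ELF5 was not well above background), 4 of 4 of epiblast and 2 of 2 of primitive endoderm were detected. KRT8 of trophectoderm (0.58 ± 0.22, limma adjusted p = 0.0408) and POU5F1 of epiblast (0.21 ± 0.03, limma adjusted p = 0.0118) were higher in parthenotes. They were the only markers called in their lists, whose medians were 0.08 and -0.01. TFAP2C of trophectoderm read -0.31, and GDF3 and LIN28A of epiblast read -0.37 and -0.22, while GATA3 (0.12) and DPPA5 (0.31) lay above 0. The primitive endoderm markers GATA4 and APOA1 were not called (median -0.55). Markers of other cells stood higher in parthenotes. Of 4 secretory markers of oviduct and uterus, 4 were higher with a median log2 ratio of 3.38, and their summed signals were 6299 to 26351 against 715 to 2303. Of 7 markers of ciliated cells, 5 were higher (median 2.11, sums of 723 to 1706 against 246 to 324), while FOXJ1 was not well above background. Of 4 erythroid markers, 3 were higher (median 1.79, sums of 60362 to 132993 against 8214 to 29516, EPB42 not above background). Of 6 leukocyte markers, 3 were higher (median 0.29, sums of 427 to 476 against 243 to 261), with PTPRC and CD3E not well above background. Their part in the solute carrier results was not tested.

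The probes of the carriers with the largest or the most even ratios are printed here because each ratio rests on what its 60 bases hybridised. Probes that overlap are shown in pairs, with the bases common to both in capitals. The name of each is followed by the base of its transcript at which it starts, and all sequences are those of the array files, 5′ to 3′. The SLC26A7 pair shares 56 bases, the SLC25A40 pair 20 and the SLC4A4 pair 40, while the SLC16A7 probes share no run.
SLC26A7 at base 1030: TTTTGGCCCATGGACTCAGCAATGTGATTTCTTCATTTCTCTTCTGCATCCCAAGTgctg
SLC26A7 at base 1026: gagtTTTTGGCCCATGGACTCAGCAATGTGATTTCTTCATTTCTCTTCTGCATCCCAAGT
SLC16A7 at base 1257: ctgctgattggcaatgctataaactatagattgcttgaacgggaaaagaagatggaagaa
SLC16A7 at base 1395 of a second transcript model: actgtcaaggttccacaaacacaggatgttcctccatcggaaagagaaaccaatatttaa
SLC25A24 at base 1305: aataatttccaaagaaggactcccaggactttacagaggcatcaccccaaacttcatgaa
SLC25A40 at base 911: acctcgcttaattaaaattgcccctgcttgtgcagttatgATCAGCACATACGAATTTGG
SLC25A40 at base 951: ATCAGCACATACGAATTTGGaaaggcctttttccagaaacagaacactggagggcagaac
SLC4A4 at base 3131: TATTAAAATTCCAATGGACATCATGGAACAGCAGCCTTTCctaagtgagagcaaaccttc
SLC4A4 at base 3111: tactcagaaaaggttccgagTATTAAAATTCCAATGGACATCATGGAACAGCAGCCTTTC

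Of the 245 solute carrier genes, 50 were called (20.4%), against 24.0% of all named genes and 20.6% of all probes. Of these, 16 were higher in parthenotes (6.53%, all named genes 11.8%) and 34 lower (13.9%, all named genes 12.2%). The median log2 ratio of the 245 genes was -0.01, and that of all named genes was 0. Ratios set to 0 where both channels were dim enter these medians and those of the families below. Among the 170 carriers that passed a filter on dim probes the median was -0.09, against -0.03 over all probes that passed it. Of the 50 called genes, 22 had a mean log2 ratio under 0.5 in size, against 1337 of the 2350 named genes called. At a size of 1 or more, 8 of the 245 genes were called, 4 higher and 4 lower. Over all 9794 named genes 405 were, 226 higher and 179 lower. Of the 170 genes well above background on all arrays in at least 1 channel, 3 were called higher and 3 lower at a mean log2 ratio of 1 or more in size. Under the ratio of the processed signals, which keeps the values of dim spots, the split turned to 56 higher and 47 lower, so 54.4% of called genes were higher in place of 32%. The same scaling moved the share of higher calls over all probes from 46.2% to 65.0%.

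Most of the 245 genes were detected. Both channels were well above background on all 4 arrays for 155 genes, neither channel on any array for 52, and 170 genes were detected on all arrays in at least 1 channel. Among these 170, 14 were called higher and 31 lower (26.5% called, against 29.6% of the named genes that passed the same filter). In 27 genes the fertilised channel was detected on more arrays than the parthenote channel, and in 3 genes the reverse. The whole array leaned the same way, with 27508 to 27835 spots well above background in the fertilised channel and 25805 to 26339 in the parthenote channel. No solute carrier spot was saturated (0 genes). Of the 50 called genes, 42 were detected in both channels on all arrays, and SLC7A1 and SLC18A3 in neither on any array.

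All 50 called genes had the same sign on all 4 arrays, and none changed sign when an array was left out. Their calls were less stable, since 20, 8, 10 and 4 of them were still called without array 1, 2, 3 and 4. Only SLC25A40 and SLC7A5 were called in all 4 of these fits, and SLC25A26, SLC2A8 and SLC4A2 in 3 of 4. Each of the other calls was lost in at least 2 of these fits.

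The size of the ratio depended on the background correction in dim genes and on the scaling in bright ones. After normexp, which adds an offset of 50 to every signal, and loess, SLC26A7 read 0.59 in place of 2.38, SLC36A2 0.27 in place of 2.06, SLC45A2 -0.22 in place of -1.13, SLC17A9 -0.45 in place of -1.12, SLC9A3 -0.34 in place of -1.07, SLC4A2 -0.37 in place of -0.92 and SLC28A2 -0.37 in place of -0.91. SLC16A7 read 1.81 in place of 2.21 and SLC25A24 1.63 in place of 1.78. Under normexp with median centring, these 2 read 1.31 and 1.04. Bright genes called lower moved further from 0 there, SLC25A4 to -1.96 from -0.68, SLC1A1 to -1.72 from -0.91 and SLC7A5 to -1.07 from -0.42. Of the 50 called genes, 8 changed sign under normexp with median centring, namely SLC15A2, SLC15A3, SLC16A11, SLC17A5, SLC25A38, SLC18A3, SLC7A1 and SLC7A14, and 0 changed sign under the other scalings.

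**Figure D1:**
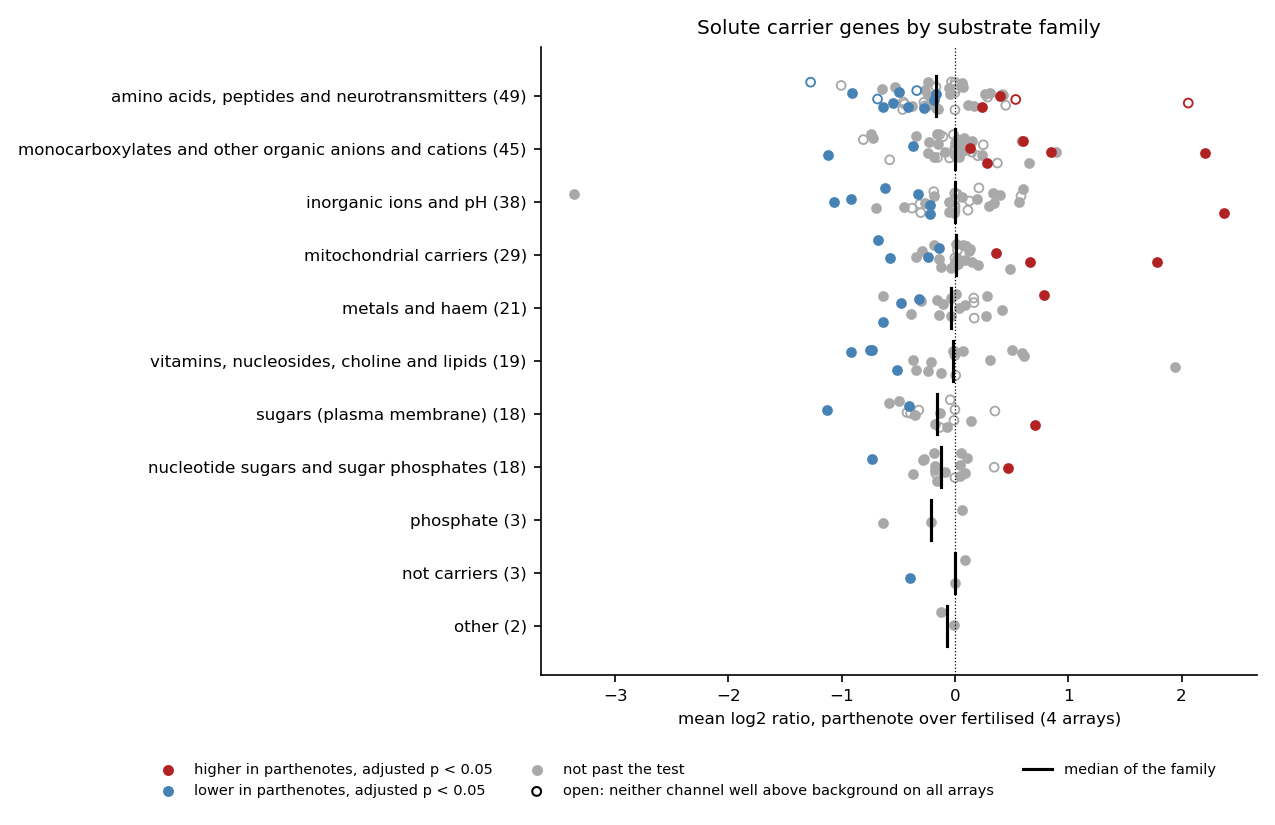
Mean log2 ratio, parthenote over fertilised, of each of the 245 solute carrier genes (points, x axis) by substrate family (rows, number of genes in brackets). Red points were called higher (16) and blue points lower (34), grey points did not pass the test, open points were not well above background on all arrays in either channel, and black bars are family medians, which lie between -0.22 and 0.01.

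Among 45 carriers of monocarboxylates and other organic ions, 26 of them detected, 5 were higher and 2 lower (15.6% called, all named genes 24.0%). The median was 0 (0.03 among the 26 detected), or 0.000149 to 0.18 under other scalings. SLC16A7 (MCT2), a carrier of pyruvate, lactate and ketone bodies with high affinity, gave signals of 2285, 1240.2, 1094 and 1401 in parthenotes and 337, 258, 276 and 399 in fertilised embryos. The groups were far apart on every array, a 4.62-fold difference (log2 ratio 2.21 ± 0.41, SD, n = 4, limma adjusted p = 0.0141). Its second probe, which shares no run with the first, gave 2.04 ± 0.55. SLC16A1 (MCT1), the widely expressed member of the same family, read 364, 887, 797 and 809 in parthenotes and 397, 769, 807 and 702 in fertilised embryos. Its groups overlapped, and its log2 ratio of 0.07 ± 0.17 did not pass the test (limma adjusted p = 0.618).

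Of the 3 ancillary subunits listed for these carriers, both embigin and basigin were higher in parthenotes. EMB (embigin) gave 55.2, 36.7, 34.9 and 43.7 in parthenotes against 24.9, 17.2, 16.9 and 19.2, a log2 ratio of 1.12 ± 0.06 (limma adjusted p = 0.00428). BSG (basigin) gave 28252, 30425, 28784 and 25315 against 21511, 23360.4, 22087 and 20815, a log2 ratio of 0.36 ± 0.05 (limma adjusted p = 0.0103). Neither gene's groups overlapped. The related NPTN read 0.01 ± 0.06 and did not pass the test (limma adjusted p = 0.856).

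Other organic anion carriers went in both directions. SLC17A1, a renal type phosphate and urate carrier, read 142, 70.2, 69.9 and 69.0 in parthenotes and 86.2, 39.2, 32.3 and 42.4 in fertilised embryos. Array 1 was brighter in both channels, so the groups overlapped across arrays although the ratio was positive on each (0.85 ± 0.19, limma adjusted p = 0.0177). SLC47A2, an exporter of organic cations in exchange for protons, gave 29.5, 38.9, 44.4 and 31.9 against 22.5, 23.2, 25.4 and 23.2, with no overlap and a log2 ratio of 0.60 ± 0.20 (limma adjusted p = 0.0346). The lysosomal sialic acid exporter SLC17A5 (0.28 ± 0.09) and SLC16A11 (0.13 ± 0.05) were called at smaller ratios. SLC17A9, which loads ATP into vesicles, went the other way, with 34.2, 52.7, 35.7 and 36.8 in parthenotes against 82.1, 97.7, 98.4 and 66.7. It was 2.17-fold lower with no overlap (log2 ratio -1.12 ± 0.29, limma adjusted p = 0.0228), and its ratio read -0.45 after normexp and loess. SLC22A7, an organic anion exchanger, was lower by less, at 97.9, 97.8, 116 and 101 against 130.1, 135, 138 and 128 (log2 ratio -0.37 ± 0.09, limma adjusted p = 0.0212).

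The organic cation carriers SLC22A2 and SLC22A3 lie in an imprinted region in the mouse. SLC22A3 read 100.0, 97.6, 87.4 and 80.3 in parthenotes and 113, 106, 104 and 85.6 in fertilised embryos at its brightest probe, with overlapping groups and a log2 ratio of -0.16 ± 0.07 (limma adjusted p = 0.0531). A probe starting 40 bases further along the transcript was detected on all arrays in fertilised embryos (40.5, 27.2, 30.4 and 16.6) and on none in parthenotes (16.8, 6.97, 6.52 and 3.79). It was called lower (limma adjusted p = 0.0182), with no fold given. Of the other 4 probes, none was detected in either channel. SLC22A2 was well above background in neither group on any array, at 3.77, 3.38, 7.71 and 3.81 and 6.12, 2.57, 9.19 and 2.64.

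**Figure D2:**
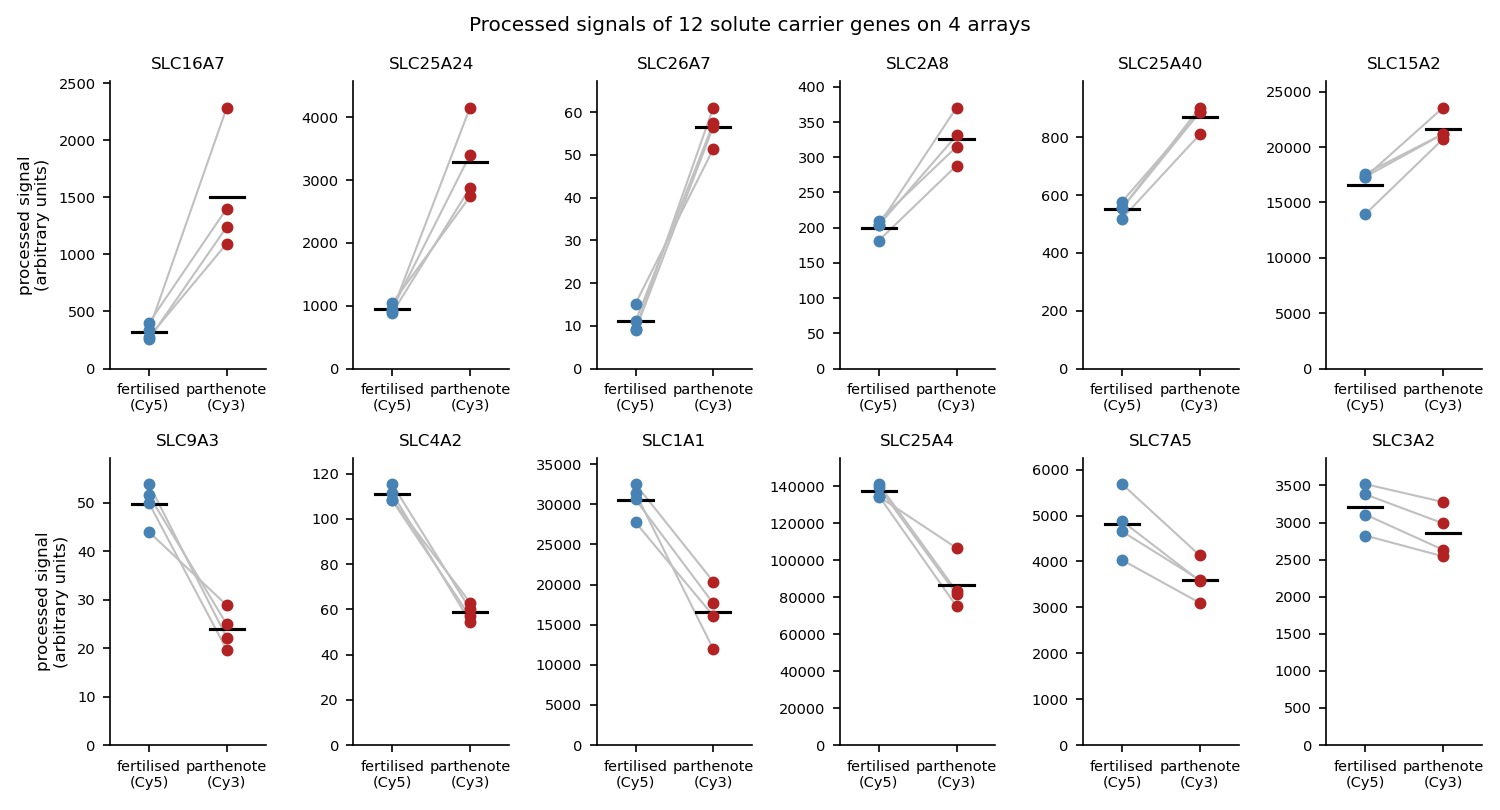
Processed signal (y axis, arbitrary units, starting at 0, a separate scale for each gene) of 12 solute carrier genes in fertilised (blue) and parthenote (red) pools, with grey lines joining the channels of 1 array and black bars at the means of 4. The groups do not overlap in 10 of the genes, among them SLC16A7 and SLC25A24, while SLC7A5 and SLC3A2 overlap across arrays but were lower in parthenotes on each of the 4 arrays.

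Among 38 carriers of inorganic ions and regulators of pH, 23 of them detected, 1 was higher and 6 lower (18.4% called, all named genes 24.0%). The median was 0 (-0.05 among the 23 detected), or -0.03 to 0.13 under other scalings. SLC26A7, a chloride and bicarbonate carrier best known from kidney and stomach, gave 61.1, 56.6, 51.4 and 57.4 in parthenotes and 9.24, 8.997, 15.2 and 11.0 in fertilised embryos. No value of the groups overlapped (log2 ratio 2.38 ± 0.44, limma adjusted p = 0.0137). Fertilised signals were well above background on only 1 array, and the ratio read 0.59 after normexp and loess, so no fold is given. Its 5 probes, each shifted by 1 base from the next, read 2.13 to 2.63. ATP4A, the catalytic subunit of the gastric type proton pump, was also higher (log2 ratio 1.40 ± 0.27, limma adjusted p = 0.0143).

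The 6 lower genes of this group were exchangers and cotransporters of the plasma membrane. SLC4A2, which exchanges chloride for bicarbonate, gave 63.0, 60.1, 54.5 and 56.9 against 109, 115, 111 and 108, a 1.89-fold difference that was alike on all arrays (log2 ratio -0.92 ± 0.10, limma adjusted p = 0.00748). After normexp and loess its ratio read -0.37. SLC4A3, a second exchanger of the same kind, read 46.9, 37.6, 44.0 and 39.6 against 64.0, 68.6, 69.8 and 55.8 (-0.62 ± 0.19, limma adjusted p = 0.0290). Neither gene's groups overlapped. The sodium bicarbonate cotransporter SLC4A7 gave 2001, 1858, 1639 and 1701 against 2629, 2299, 2173 and 1971, overlapping across arrays but lower on each (-0.33 ± 0.09, limma adjusted p = 0.0241), and its 8 probes read -0.64 to -0.31.

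SLC9A3, the sodium and proton exchanger of absorptive epithelia, was also lower and read 19.6, 28.8, 24.9 and 22.2 in parthenotes, where it was detected on 3 arrays, against 49.9, 44.0, 51.5 and 53.8. The groups did not overlap and differed 2.10-fold (log2 ratio -1.07 ± 0.33, limma adjusted p = 0.0297), a size that depends on the scaling. After normexp and loess SLC9A3 read -0.34. The potassium chloride cotransporter SLC12A4 read -0.22 ± 0.09 on the log2 scale and was called lower, while the sodium potassium chloride cotransporter SLC12A2 at -0.18 ± 0.25 did not pass the test (limma adjusted p = 0.359). Scaling did not turn the sign of any called gene of this group in the 4 scalings tried. SLC4A1, the anion exchanger of red cells, was at the edge of detection in both groups (12.6, 10.8, 10.4 and 8.93 against 14.2, 13.6, 13.3 and 14.1, well above background in 1 channel of 1 array), beside the erythroid markers that were higher.

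SLC4A4, a sodium bicarbonate cotransporter, gave the lowest mean ratio of the 245 genes without passing the test, and its probes had opposite signs. The brightest read 4.45, 3.78, 27.7 and 14.1 in parthenotes and 97.6, 96.3, 86.8 and 90.1 in fertilised embryos (log2 ratio -3.36 ± 1.45, limma adjusted p = 0.0516). Its neighbour, which shares the 40 bases in capitals above, read 1.14 ± 1.25, and the other 3 probes 1.30 to 2.02. None of the 5 was called, so no direction is given for this gene.

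**Figure D3:**
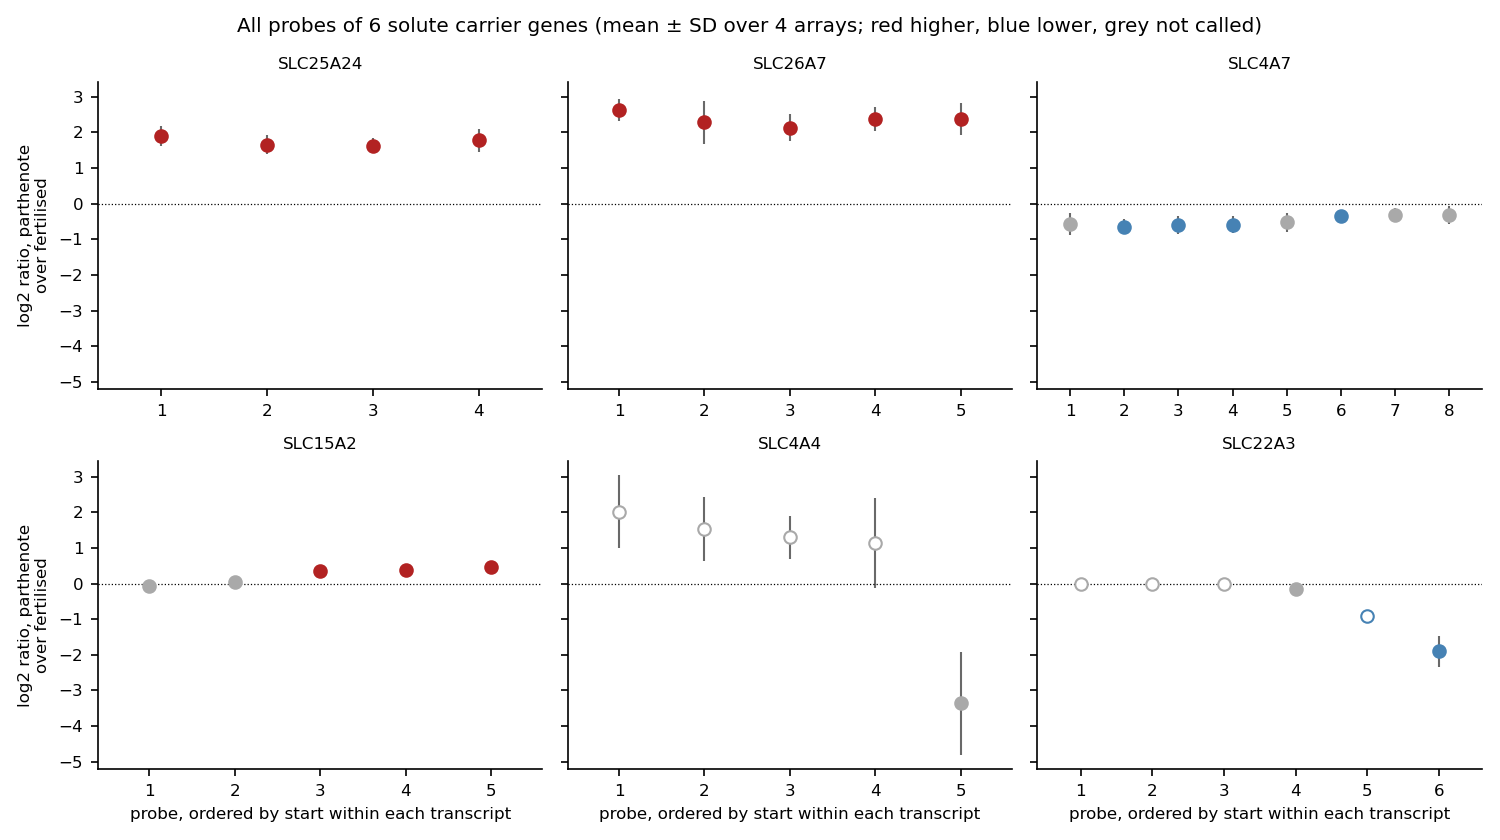
Log2 ratio, parthenote over fertilised, of every probe of 6 solute carrier genes (mean ± SD over 4 arrays, y axis), ordered by start within each transcript (x axis). Filled points were well above background on all arrays in at least 1 channel, red and blue points were called higher and lower, and grey points were not called. The 4 probes of SLC25A24 read 1.63 to 1.91 and the 5 of SLC26A7 2.13 to 2.63, whereas SLC4A4 has 1 probe at -3.36 and 4 above 0.

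The carriers of amino acids, peptides and neurotransmitters formed the largest group, with 49 genes, 28 of them detected. Of these 49, 4 were higher and 11 lower (30.6% called, all named genes 24.0%). The median log2 ratio was -0.17, and ranged from -0.15 to 0.03 under other scalings. SLC1A1, the glutamate and aspartate carrier EAAT3, gave 11950.4, 20364, 17649.5 and 16094 in parthenotes and 31421, 32517, 30597 and 27754 in fertilised embryos. The groups did not overlap, and array 1 showed the largest gap (log2 ratio -0.91 ± 0.33, limma adjusted p = 0.0372). Its second probe read -0.54 ± 0.18 and was also called. The glutamine carrier SLC1A5 gave 3995, 3084, 3080.1 and 2934 against 4751, 5061, 5847 and 4711. These values did not overlap either, but the spread of the ratio left it short of the threshold (-0.64 ± 0.28, limma adjusted p = 0.0537).

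The heteromeric exchanger of large neutral amino acids was lower in both of its subunits. The light chain SLC7A5 (LAT1) gave 3594, 4129.5, 3575 and 3096 in parthenotes and 4655, 5685, 4879.8 and 4032 in fertilised embryos. The channels of an array varied together, so the groups overlapped, yet the ratios of -0.37, -0.46, -0.45 and -0.38 were close to each other (-0.42 ± 0.05, limma adjusted p = 0.00749). The heavy chain SLC3A2 gave 2988, 3276, 2632 and 2544 against 3379.6, 3518, 3108 and 2824, a smaller difference of -0.17 ± 0.06 with overlapping groups (limma adjusted p = 0.0351). Of the other carriers of the SLC7 family, SLC7A9 (-0.55 ± 0.13), SLC7A6 (-0.18 ± 0.07) and SLC7A14 (-0.34 ± 0.13) were lower, the last at the edge of detection. SLC7A8 (LAT2) read 0.31 ± 0.28 and did not pass the test (limma adjusted p = 0.207).

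Further neutral amino acid carriers that were lower included SLC6A19, at 186, 362, 255 and 232 against 368, 475, 406 and 329. Its groups overlapped by 1 array, and its log2 ratio was -0.64 ± 0.26 (limma adjusted p = 0.0454). CLTRN, a partner of SLC6 carriers in the kidney, read 0.14 ± 0.32 and did not pass the test (limma adjusted p = 0.584). SLC38A6 was lower at -0.49 ± 0.12 and SLC36A4, of lysosomes, at -0.27 ± 0.11, whose second probe was not detected and read 0.07. The cationic amino acid carrier SLC7A1 and the vesicular acetylcholine carrier SLC18A3 were called lower, but both channels of both genes lay below the detection mark on all arrays, so no fold is given for them.

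Higher in this group were the proton coupled peptide carriers SLC15A1, SLC15A2 and SLC15A3 and the proton coupled amino acid carrier SLC36A2. SLC15A2 (PEPT2), of kidney and other epithelia, gave 21191, 21178, 23565 and 20736 in parthenotes and 17599, 17318, 17289.9 and 13943 in fertilised embryos, with no overlap (0.39 ± 0.14, limma adjusted p = 0.0382). Its 3 probes near the end of the transcript read 0.35 to 0.46, and the 2 further inside read 0.04 and -0.07 and were not called. SLC15A3, of lysosomes, was higher by less, at 102, 101, 108 and 94.6 against 85.8, 83.3, 87.2 and 85.8 (0.24 ± 0.07, limma adjusted p = 0.0277). Under normexp background correction with median centring, SLC15A2 read -0.40 and SLC15A3 -0.03. SLC15A1 (PEPT1) was detected on 2 arrays only and read 11.7, 13.5, 31.6 and 48.8 against 7.81, 10.3, 18.7 and 36.4. SLC36A2 was above background on 3 arrays in parthenotes (8.23, 33.7, 16.2 and 16.2) and on none in fertilised embryos (3.59, 10.3, 2.91 and 2.24). It was called higher (log2 ratio 2.06, limma adjusted p = 0.0383). The difference was at least 1.29-fold, a bound that takes the lowest signal of detected probes as the floor of the fertilised channel. This bound was read from normexp and loess signals with repaired backgrounds, scaled between arrays. It is not on the scale of the signals listed or of the ratio tested.

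Several carriers known from blastocysts of other mammals did not pass the test. The creatine carrier SLC6A8 gave 20338, 17968, 16952 and 15488 in parthenotes and 20495, 23658, 20336 and 18884 in fertilised embryos (-0.24 ± 0.16, limma adjusted p = 0.122). SLC38A2, a neutral amino acid carrier that responds to amino acid supply, gave 350.4, 362, 356 and 349 against 394, 355, 364 and 354 (-0.05 ± 0.09, limma adjusted p = 0.506). Both overlapped between the groups. SLC6A14 was at background on all arrays in both groups, and the taurine carrier SLC6A6 was detected on array 4 alone, at 46.5 in parthenotes and 54.2 in fertilised embryos. SLC6A9, SLC38A4, SLC2A12, SLC16A3, SLC22A5, SLC22A17, SLC22A18, SLC25A23 and SLC40A1 had no probe under their name and were not analysed here.

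**Figure D4:**
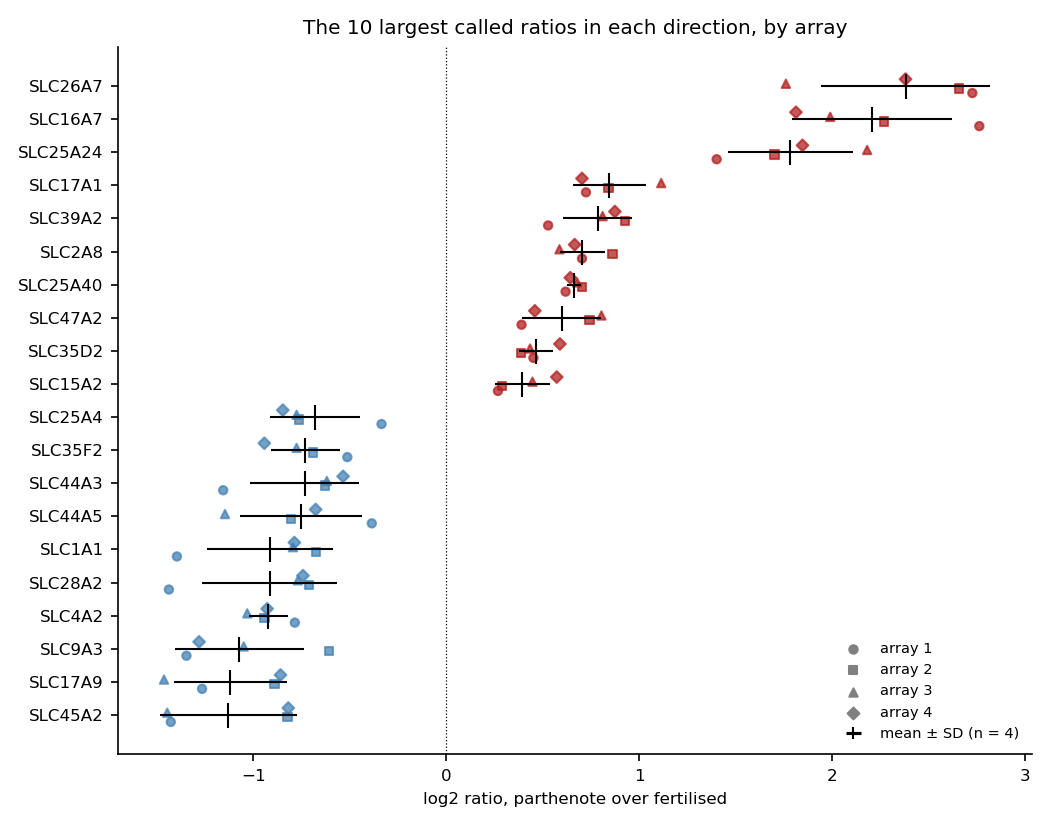
Log2 ratio, parthenote over fertilised (x axis), on each of the 4 arrays (symbols) for the 10 detected solute carrier genes with the largest called ratios in each direction (rows), with mean and SD (black). SLC25A40 varies least among them (SD 0.04), and array 1 stands apart from the other arrays in SLC1A1, SLC28A2, SLC44A3 and SLC25A4.

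Among 29 mitochondrial carriers, 25 of them detected, 3 were higher and 4 lower (24.1% called, all named genes 24.0%). The median was 0.01, which ranged from -0.24 to 0.07 under other scalings. SLC25A24, which exchanges ATP-Mg for phosphate across the inner membrane under the control of calcium, gave 2740.2, 2877, 4155 and 3403 in parthenotes and 1038, 885, 917 and 947 in fertilised embryos. No values overlapped, the difference was 3.44-fold (log2 ratio 1.78 ± 0.32, limma adjusted p = 0.0135), and its 4 probes read 1.63 to 1.91. The description on the array gave this transcript the name of the related SLC25A23, and the current symbol was taken from its accession. SLC25A40, a carrier linked to mitochondrial glutathione, gave 886, 903, 887 and 809.9 against 577, 555, 554 and 519. Its ratio was the most even of the largest ones, 0.66 ± 0.04 (limma adjusted p = 0.00429), and its overlapping second probe read 0.74 ± 0.05. Under normexp with median centring SLC25A40 read 0.05 and did not pass the test (limma adjusted p = 0.641). SLC25A38, the glycine carrier of haem synthesis, was higher by 0.37 ± 0.09 at its brighter probe and 0.04 at the other, and read -0.24 under normexp with median centring.

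SLC25A4, the ADP and ATP exchanger ANT1, gave 106596, 83139, 81568 and 75006 in parthenotes against 134460.0, 141183, 139545 and 134848. The groups did not overlap, with the smallest gap on array 1 (-0.68 ± 0.23, limma adjusted p = 0.0347), and its 5 probes read -0.90 to -0.68. A pair of these probes shares 56 of 60 bases. SLC25A26, which imports the methyl donor S-adenosylmethionine, gave 365, 392, 389 and 346 against 443, 459.9, 455 and 407, a small but even difference of -0.24 ± 0.03 (limma adjusted p = 0.00749). SLC25A29, a carrier of basic amino acids, read -0.57 ± 0.21. The phosphate carrier SLC25A3 read -0.14 ± 0.06, and its second probe 0.02.

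The 18 sugar carriers, 10 of them detected, held 1 higher and 2 lower genes (16.7% called, all named genes 24.0%). Their median was -0.16 (-0.15 to 0.06 under other scalings). SLC2A8 (GLUT8), a hexose carrier known for its response to insulin in blastocysts, gave 331, 371, 315 and 288 in parthenotes and 203, 204, 209.7 and 182 in fertilised embryos. It was 1.63-fold higher with no overlap (log2 ratio 0.70 ± 0.12, limma adjusted p = 0.0120). Under normexp with median centring it read 0.11 and did not pass the test (limma adjusted p = 0.319). TXNIP, which lowers glucose carriers at the surface, was also higher (1.57 ± 0.29, limma adjusted p = 0.0137). SLC45A2, known from melanosomes, was lower, at 11.3, 18.2, 12.3 and 14.2 with detection on 1 array, against 30.5, 32.2, 33.4 and 25.1 (-1.13 ± 0.36, limma adjusted p = 0.0302). SLC45A1, a proton coupled sugar carrier, read -0.40 ± 0.17. The sodium glucose carrier SLC5A1 did not pass the test at its brightest probe (-0.49 ± 0.21, limma adjusted p = 0.0518), and its other 4 probes read from -0.47 to 0.64.

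Of 18 carriers of nucleotide sugars and sugar phosphates, 15 of them detected, 1 was higher and 1 lower (11.1% called, all named genes 24.0%). SLC35D2, which supplies the Golgi with nucleotide sugars, gave 85.2, 79.2, 88.2 and 87.3 in parthenotes and 62.3, 60.6, 65.3 and 58.1 in fertilised embryos (0.47 ± 0.09, limma adjusted p = 0.0141). Under normexp with median centring it read 0.10 and did not pass the test (limma adjusted p = 0.348). SLC35F2 gave 83.6, 73.8, 66.8 and 60.5 against 119, 119, 114 and 116 (-0.73 ± 0.18, limma adjusted p = 0.0205). The groups of both were apart, in opposite directions.

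Of the 19 carriers of vitamins, nucleosides, choline and lipids, 17 of them detected, 0 were higher and 4 lower (21.1% called, all named genes 24.0%). SLC28A2, which concentrates purine nucleosides with sodium, gave 24.4, 38.6, 33.1 and 31.8 in parthenotes and 66.1, 63.2, 56.4 and 53.2 in fertilised embryos (-0.91 ± 0.35, limma adjusted p = 0.0416). SLC29A2, which equilibrates nucleosides without an ion gradient, gave 203, 206, 195 and 188 against 314, 257, 279 and 279 (-0.51 ± 0.14, limma adjusted p = 0.0232). Neither overlapped between groups. Of the other nucleoside carriers, SLC29A1 (0.01 ± 0.12) and SLC28A3 (-0.35 ± 0.30) did not pass the test (limma adjusted p = 1.00 and 0.185). Of the choline carrier family, SLC44A3 gave 65.6, 105, 97.5 and 80.5 against 146, 163, 149.7 and 117 (-0.73 ± 0.28, limma adjusted p = 0.0427), and SLC44A5 read -0.75 ± 0.32, although another of its probes, not detected, read 0.67. SLC46A2 read higher, 49.6, 65.8, 42.5 and 38.7 against 31.3, 11.7, 10.5 and 6.38, but its brightest probe did not pass the test (1.94 ± 0.89, limma adjusted p = 0.0574), and its 2 other probes, at 2.08 and 2.63, did (limma adjusted p = 0.0361 and 0.0485).

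Among 21 carriers of metals and haem, 18 of them detected, 1 was higher and 3 lower (19.0% called, all named genes 24.0%). The zinc importer SLC39A2, which the array describes as like SLC39A1, gave 32.2, 35.9, 39.8 and 37.6 in parthenotes and 22.3, 18.9, 22.7 and 20.5 in fertilised embryos (0.78 ± 0.18, limma adjusted p = 0.0180). SLC30A6, which loads zinc into the Golgi, was lower on each array, at 347, 289, 262 and 276 against 413, 363, 356 and 331, with overlapping groups (-0.32 ± 0.09, limma adjusted p = 0.0237). SLC39A7, which releases zinc from the endoplasmic reticulum, read -0.48 ± 0.15, and SLC39A12 -0.64 ± 0.20, with another of its probes, not detected, at 0.28. The iron importer SLC11A2 (-0.30 ± 0.21) and the zinc importer SLC39A8 (-0.14 ± 0.25) did not pass the test. None of the 3 phosphate carriers was called, SLC34A2 among them (-0.63 ± 0.39, limma adjusted p = 0.0994). Of the 3 genes named after a carrier without being one, SLC7A6OS was lower (-0.40 ± 0.14, limma adjusted p = 0.0356).

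Of 28 pumps, subunits, kinases and other partners listed for these carriers, 24 had a probe, 6 were higher and 0 lower, with a median log2 ratio of 0.01. Of all named genes 24.0% were called, 11.8% higher and 12.2% lower, so the share of partners called was near that of all genes. Beside ATP4A, BSG, EMB and TXNIP, they included WNK1, a kinase that governs cation and chloride carriers (0.29 ± 0.07, limma adjusted p = 0.0194). The sodium pump subunits ATP1B1 (-0.05 ± 0.07) and ATP1B3 (-0.09 ± 0.14) did not pass the test.

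Where a solute carrier had several probes they mostly had the same sign. Of 71 genes with at least 2 detected probes, 57 had 1 sign in all of them, as did 17 of 19 called ones, SLC15A2 and SLC25A3 being the exceptions. Probes of a gene can share bases, 56 in a pair of SLC26A7 and in a pair of SLC25A4, so a common sign is not independent evidence. How many of these probes overlap was not counted. A further 136 genes, 26 of them called, rested on a single probe.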

How the data were processed

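RNA of 4 parthenote pools (Cy3) and 4 in vivo fertilised pools (Cy5) was measured on 4 arrays of 1 slide with 2 colours. According to the methods, the authors hybridised 1 pool of each group per array, extracted spots with Agilent Feature Extraction (version 10.10.1.1 in the submitters' processing notes), removed outliers and tested in GeneSpring by t-test, adjusted after Benjamini and Hochberg. The deposited processed intensity of each channel had its background subtracted and its dyes normalised, and the deposited mean and background intensities were not normalised. The log10 ratio that the authors deposited is Cy5 over Cy3 and is 0 where both channels are dim. The value table that the authors deposited gives that log10 ratio as Cy3 over Cy5, so it is no independent check. The genome build of the array's positions was not given in the sources used here, and no coordinates are printed.

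The log10 ratios were put on the log2 scale as parthenote over fertilised. Control spots and the 26 to 48 spots per array with an outlier mark were not used. The test was that of limma 3.58.1 (lmFit and eBayes, two-sided) in R 4.3.3, for probes measured on 3 arrays or more, with Benjamini-Hochberg adjustment over all 43595 probes and a threshold of 0.05. The ratio pairs the channels of an array. Deviations of the channels of 1 array from their group means correlated by 0.44, 0.47, 0.43 and 0.38, against -0.18 to -0.11 between arrays. Files were read with the data.table package (1.17.8) in R and with pandas 2.3.3 and numpy 2.4.6 in Python 3.11.15, and plots were drawn with matplotlib 3.10.9.

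Symbols came from the RefSeq accession (372 of the 540 solute carrier probes), the gene identifier (152), the family and member in the description (13), another probe of the transcript (2) or a symbol in the description (1), through a table of rabbit genes of the assembly mOryCun1.1 used for names only. For 8 genes the array's description and the table name different members of a family, and the table's name was used. The genes named in the text are the 10 with the largest called ratio in each direction among those detected on all arrays, the gene with the smallest p in each family and direction, and a list of 30 carriers known from blastocysts or imprinted in other mammals, of which 21 had a probe. Other called genes, and SLC4A1, SLC4A4, SLC46A2, SLC28A3, SLC29A1 and the several probes of a gene, were added after their values were seen. Some genes that enter the counts are not reported here by name. The members, substrate families and lists of markers and partners were chosen with earlier results of these data known.

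On simulated ratios with the spreads of the 43595 probes of this comparison, limma recovered 6, 15, 19 and 33 of 50 probes changed by 1.5-, 2-, 3- and 5-fold, with 5 false calls. Far fewer probes were changed in the simulation than were called in the data (8996), which makes the adjusted threshold stricter. These counts therefore do not give the share of changes missed here. Precision is limited by the number of arrays. Alternatives were background correction by normexp (offset 50) followed by loess, by median centring or by loess after repair of local backgrounds, ratios of the processed intensities, the value table, a filter on dim probes, marked spots kept, the methods' t-test, the channels as separate samples, an intensity trend with robust estimation, leaving out each array, averaging the probes of a gene, and probes named by the array file alone.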

Additional observations from a re-analysis of the deposited data

Results flagged for a closer look

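In 5 of the 54 groups of 4 arrays examined, 1 array lay far from the others by Dixon's ratio, the gap to the nearest array over the whole range, past its 95% critical value. Chance gives about 1 in 20. The ratio was 0.923 for SLC28A2, 0.85 for SLC44A3, 0.835 for SLC1A1, 0.836 for SLC25A26 and 0.839 for SLC25A4. Array 1 was the one apart in all 5. Its log2 ratio was lower than on the other arrays in SLC28A2 (-1.44), SLC44A3 (-1.16), SLC1A1 (-1.39) and SLC25A26 (-0.28), and higher in SLC25A4 (-0.34).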

How the results depend on the processing

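Solute carrier counts moved with the processing. Under normexp with median centring 170 genes were called (65 higher, 105 lower, median -0.10, all probes 31610). The ratio of the processed signals gave 103 (56 higher, median 0.00493, all probes 21399), the methods' t-test 20 (9 higher, 11 lower, all probes 4435) and the channels as separate samples, without the pairing of a replicate block, 77 (45 higher, median 0.00493, all probes 16358). With repaired backgrounds 30 were higher. The filter on dim probes left 25 higher and a median of -0.0879 (all probes -0.034), and probes named by the array alone a median of 0. Leaving out 1 array in turn gave 4 to 29 called genes (2 to 11 higher, 1 to 18 lower) and 1239 to 5735 probes. In named genes, the sign turned under normexp with median centring in SLC15A2 (-0.40), SLC15A3 (-0.0298), SLC16A1 (-0.43), SLC7A8 (-0.44) and SLC22A2 (0.23), with single arrays left out in SLC22A2 (-0.317 to 0.0914, the latter without array 1), and in SLC6A6 under normexp and loess (-0.0336, -0.0386 with repaired backgrounds). Under normexp with median centring, SLC25A40, SLC2A8, SLC35D2, SLC45A2 and SLC47A2 kept their sign but no longer passed the test. The cause of these changes was not tested. The count of called solute carrier genes stayed within 1.5 times of 50 under normexp and loess (40), repaired backgrounds (75), the dim filter (66), the intensity trend (39) and marked spots kept (50). Signal over background limits the 52 genes detected in neither channel.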
